A study of Mus musculus and Rattus norvegicus with 26 samples.

Results

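The genes described here are ubiquitin ligases, their E2 partners and deubiquitinases with reads from an intron in RNA of neurons, brown adipose cells and cardiomyocytes. They were chosen by name alone: a symbol beginning with Usp, Ube, Ubr, Fbx, Herc or Hectd, or with Trim followed by a digit. The rule found 205 of the 13695 genes in 6 lists of intronic contigs, 197 of them in the 4 mouse lists, 90 in the rat lists and 8 in the rat lists only. By family these were 35 Ube, 6 Ubr, 5 Herc, 3 Hectd, 63 Fbx, 46 Trim and 47 Usp symbols. The names reach beyond ligases and proteases of ubiquitin. The 30 Ube2 symbols (14.6%) are mostly E2 conjugating enzymes, among which Ube2m and Ube2f carry NEDD8; Ube2v1 and Ube2v2 are E2 variants without the catalytic cysteine, and Ube2cbp encodes a ligase that binds an E2. Usp6nl encodes a GTPase-activating protein of Rab proteins and Uspl1 a protease of SUMO.

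Ubiquitin is a small protein that an E1 enzyme activates, an E2 enzyme carries and an E3 ligase attaches to a chosen protein, often as a chain that sends the protein to the proteasome. HECT ligases (Herc, Hectd and Ube3 genes) take ubiquitin onto themselves first, TRIM proteins use a RING domain to place it from the E2, UBR proteins read the ends of proteins, and F-box proteins bring substrates to cullin ligases; deubiquitinases such as the USP family remove the mark. In neurons this system shapes axons, dendrites and synapses, and loss of the maternal copy of Ube3a causes Angelman syndrome. In muscle, Fbxo32 and Trim63 mark proteins for breakdown during wasting.

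The study asked which transcripts keep intron sequence outside the nucleus, and where in the intron that sequence lies; somas and whole cells also hold a nucleus, dendrites do not. Dendrites and somas of cultured hippocampal neurons came from C57BL/6 mice and Sprague-Dawley rats at embryonic day 18, as 3 mouse dendrite, 3 mouse soma, 2 rat dendrite and 3 rat soma libraries. The labels name 6 libraries of cells from interscapular brown adipose tissue (BAT) of CD-1 mice at embryonic day 17.5, and 9 libraries of sorted cardiomyocytes at embryonic day 14.5. The libraries of a group are pooled in 1 list, so no value has replicates, no p-value is given, and the 95% intervals cover counting error of reads without molecular identifiers only. The cardiomyocytes came from transgenic C57BL/6 mice that carry the Fucci probe mAG-hGem, a green protein fused to a part of human Geminin that is itself degraded through ubiquitin. The CMV promoter drives the probe. Hemizygous males were crossed with wild-type females, and per the authors the cells came from a hemizygous embryo. All RNA was amplified through 3 rounds of aRNA, which starts at adenine-rich sequence with a poly(T) primer.

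A contig is a stretch of intron covered by clustered reads, and a list gives the reads of each intron with a contig. Since lists hold introns kept by the authors' filters only, a gene that is not listed has no value and gives no fold. The length limit that the methods describe for contigs of somas and whole cells was not applied to the lists, whose longest member contigs had 2339 nt in mouse somas and 3058 in BAT cells. Levels are given as RPM, the reads of a gene for each 1000000 reads of the list. The total of a list is not the depth of its libraries. The reads are not strand-specific, so a gene and an antisense partner cannot be told apart, and in pooled samples fewer cells with a transcript and less of it per cell cannot be told apart either.

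Markers of the labelled cells were checked first. Of 12 neuronal genes, 11 were listed in mouse somas with 42454 summed RPM, led by Rims1, and 9 in mouse dendrites with 3269, led by Dlg2. Rat somas listed 8 with 9996 and rat dendrites 5 with 1724. BAT cells listed 9 with 2129 and cardiomyocytes 5 with 1152, so the neuronal sum of BAT cells exceeded that of rat dendrites. Map2 was listed in none of the 6 lists, and Tubb3 and Rbfox3 in mouse somas only. Of 10 brown adipocyte genes, 9 were listed in BAT cells with 9136, led by Fabp4, and Ppargc1a was not listed. Cardiomyocytes listed 5 of the 10 with 329, of which only Cidea was higher there (213) than in BAT cells (86.7). Mouse dendrites listed 5 with 212, and rat dendrites 1, Ucp1, with 94.3. Of 12 cardiomyocyte genes, 11 were listed in cardiomyocytes with 56757, led by Dmd, and Nkx2-5 was not listed there but had 1501 in BAT cells. The same 12 genes reached 4824 in BAT cells, 3090 in mouse dendrites and 2657 in mouse somas, each time led by Dmd. Markers of other cells were also present in dendrites. In mouse dendrites 4 of 5 astrocyte genes summed to 966, of which Aldh1l1 alone had 916. In rat dendrites 1 of 4 microglial genes, Itgam, had 696. Fibroblast genes reached 348 in rat dendrites, with 4 of 5 listed and Col1a2 first. Endothelial genes reached 729 in mouse somas, with 3 of 4 listed and Kdr first. Oligodendrocyte genes stayed at or under 270 and skeletal muscle genes at or under 18.7 in every list. The part of such cells in the values below was not tested.

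The members made up a similar share of the genes of each list. Mouse dendrites listed 148 members of 8607 genes (1.72%, interval 1.47 to 2.02), mouse somas 100 of 5895 (1.70%, 1.40 to 2.06), BAT cells 170 of 10220 (1.66%, 1.43 to 1.93) and cardiomyocytes 108 of 6205 (1.74%, 1.44 to 2.10). Rat dendrites listed 74 of 4485 (1.65%, 1.32 to 2.07) and rat somas 61 of 3393 (1.80%, 1.40 to 2.30). All 6 intervals overlapped. In reads the share was 1.95% of 3086576 list reads in mouse dendrites, 2.29% of 1855447 in mouse somas, 2.48% of 17858440 in BAT cells, 2.13% of 12201042 in cardiomyocytes, 2.51% of 1007530 in rat dendrites and 2.52% of 2094541 in rat somas. These shares leaned on a few introns: the 5 most read member introns held between 30% of the member reads in mouse somas and 54.9% in rat dendrites.

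The median member intron had 23 reads in mouse dendrites (interval 18 to 32) beside 24 over all introns of that list. In mouse somas it had 36 (22 to 54) beside 22, in BAT cells 34 (29 to 44) beside 29, and in cardiomyocytes 97 (52 to 178) beside 53. In rat dendrites it had 27 (14 to 44) beside 14 and in rat somas 52 (21 to 148) beside 24. Member contigs had a mean length of 362 nt (SD 266) in mouse dendrites, 398 (302) in mouse somas, 426 (367) in BAT cells, 415 (369) in cardiomyocytes, 398 (232) in rat dendrites and 556 (498) in rat somas. Over all contigs the means were 352, 391, 395, 409, 363 and 416 nt in the same order. The median member contig had 409 nt (335 to 508) in rat somas beside 303 over all contigs, 350.5 (289 to 406) in rat dendrites beside 278, and 305 (278 to 324) in BAT cells beside 273. In mouse somas and cardiomyocytes the member medians were 285 and 290 nt beside 277 and 282, and in mouse dendrites the medians were equal.

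The families differed in how much of the reads they held. Ube genes, E2 enzymes for the most part with a few ligases, took 1.19% of the list reads in rat dendrites and 0.940% in rat somas. A few genes gave most of this: without Ube2b and Ube2m the share was 0.252% in rat dendrites, and without Ube3a 0.194% in rat somas. The share was 0.195% in mouse dendrites, 0.566% in mouse somas, 0.396% in BAT cells and 0.368% in cardiomyocytes. In rat dendrites the leading gene was Ube2b, an E2 of DNA repair and histone ubiquitination, and in rat somas it was Ube3a. HERC ligases took 0.485% in mouse dendrites, where Herc1 gave 10409 of their 14978 reads, and between 0.125% and 0.295% in the other 5 lists. UBR ligases held 0.244% in mouse somas, 0.223% in rat somas and 0.00973% in rat dendrites. F-box genes held 0.716% in BAT cells, 0.513% in mouse dendrites, 0.413% in cardiomyocytes and 0.324% in mouse somas, with 0.152% and 0.246% in rat dendrites and somas. Fbxo24 gave 37461 of their 127823 reads in BAT cells and 14810 of 50412 in cardiomyocytes, and Fbxw15 gave 16871 in BAT cells. The counts of both genes are uncertain, for reasons given below. TRIM genes held 0.521% in cardiomyocytes, where 1 gene, Trim55, gave 45337 of their 63509 reads. Usp symbols held 0.853% in BAT cells and 0.550% in cardiomyocytes, or 0.785% and 0.485% without Usp6nl and Uspl1, which are no ubiquitin proteases; in cardiomyocytes the latter is below the TRIM share. They held 0.492% in mouse somas, 0.342% in mouse dendrites, 0.749% in rat dendrites and 0.620% in rat somas. In BAT cells 1 gene, Usp34, gave 67391 of the 152334 reads of Usp symbols.

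**Figure D1:**
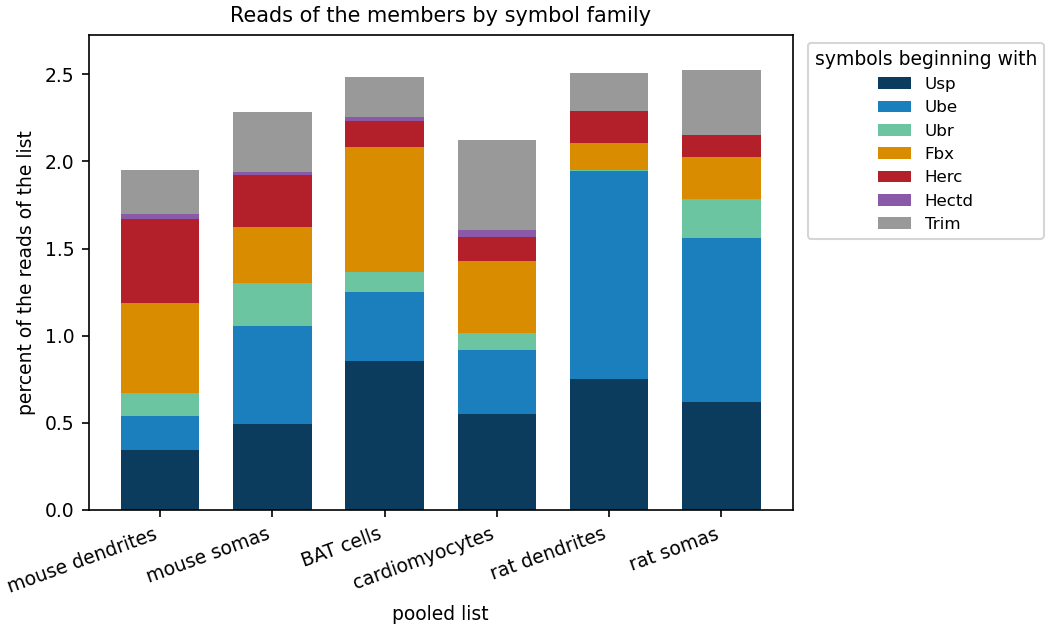
Bars show the percent of each list's reads that fell in member introns, divided by symbol family, for the 6 pooled lists. The whole bar runs from 1.95% in mouse dendrites to 2.52% in rat somas, and the Ube part is largest in rat dendrites at 1.19%.

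Across lists, 22 members (10.7% of 205) were in all 6, beside 854 of all genes (6.24%). In the 4 mouse lists, 65 of 197 members (33.0%) were in every list, beside 24.6% of all genes, and 47 (23.9%) were in a single list, beside 25.7%. The 22 shared members came from several roles and included the HECT ligases Ube3a and Herc2, the UBR ligase Ubr1, the E2 enzymes Ube2k and Ube2g1, the F-box genes Fbxl17 and Fbxo11, 4 TRIM genes and 9 USP genes. Being listed everywhere did not mean a steady level. Ubr1, which recognizes destabilizing ends of proteins, had 2269 reads in mouse dendrites, 673 in mouse somas, 12790 in BAT cells, 32 in cardiomyocytes, 16 in rat dendrites and 727 in rat somas. It was thus listed in every cell type, but with few reads in cardiomyocytes and rat dendrites. Usp15, a protease known from TGF-beta signalling, had 152, 207, 3184, 14742, 58 and 262 reads in the same order, with its top in cardiomyocytes. Fbxl17, which removes wrongly paired BTB proteins, kept within a narrower range of levels, from 72.5 RPM in rat dendrites to 400 in mouse somas.

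Ube3a showed the same order of dendrite and soma in both species. Its reads were 137 in mouse dendrites, 2841 in mouse somas, 280 in rat dendrites and 15624 in rat somas, with 1106 in BAT cells and 2504 in cardiomyocytes. In RPM the mouse value was lower in dendrites by a log2 of -5.11 (interval -5.36 to -4.86) and the rat value by -4.75 (-4.92 to -4.58). In rat somas Ube3a alone held 29.5% of the member reads and ranked first. In mouse somas it held 6.70% and ranked 3, and in mouse dendrites it held 0.228%. The reads carry no strand, so any reads of an antisense transcript at this gene are counted as Ube3a. Their part in the difference between somas, which hold a nucleus, and dendrites was not tested.

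The reads of Ube3a lay in few introns in mouse and in more introns in rat. In mouse they fell in introns 3 and 4 of a transcript and in intron 12 of another, and in rat somas in 8 introns, of which intron 4 had 8681 reads in 9 contigs and intron 11 had 4776 in 5. Intron 3 held the mouse dendrite contig at chr7:66528131-66528661, with 12.9 reads per 50 nt. The BAT contig of intron 3, chr7:66528225-66528661, ended at the same base and had 50.8 reads per 50 nt. In mouse somas that intron had 82.1 reads per 50 nt. Intron 4 had 5.00 reads per 50 nt in mouse somas, 61.9 in BAT cells and 45.7 in cardiomyocytes, so the densest intron differed between the lists. None of these mouse contigs touched an annotated exon, but without strand they cannot be given to Ube3a rather than to an antisense transcript.

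**Figure D2:**
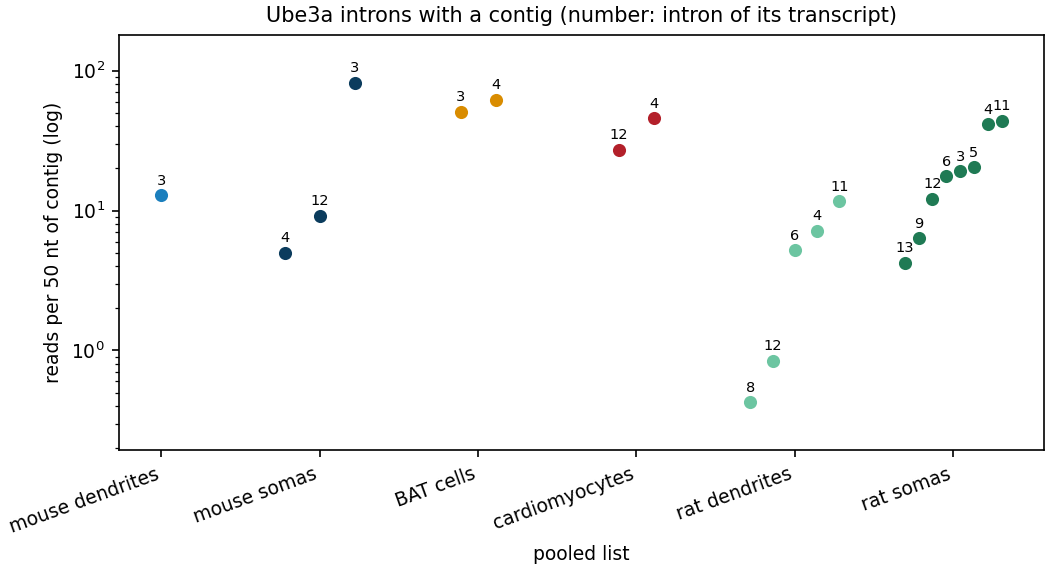
Points are introns of Ube3a with a contig, as reads per 50 nt of contig on a log axis for each pooled list, and the number beside a point is the intron of its transcript. The densest mouse point is intron 3 in somas at 82.1, and rat somas have 8 points against 5 in rat dendrites.

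The last cardiomyocyte contig of Ube3a intron 4 ended where a run of 19 adenines begins in the genome, with another run of 10 behind it. Such runs could pair with the poly(T) primer, and the sequence is shown for that reason, on the gene's strand (mm9, chr7:66536576-66536875, plus strand) with the runs in capitals.
Ube3a intron 4: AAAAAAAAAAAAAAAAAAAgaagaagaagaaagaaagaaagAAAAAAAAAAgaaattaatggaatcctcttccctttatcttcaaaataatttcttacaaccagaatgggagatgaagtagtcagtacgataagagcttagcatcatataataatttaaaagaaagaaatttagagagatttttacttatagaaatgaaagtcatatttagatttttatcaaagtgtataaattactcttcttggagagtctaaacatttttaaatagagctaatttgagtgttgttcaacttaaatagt

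A run of at least 10 adenines within 300 nt downstream was found for 6.74% of the member contigs in mouse dendrites (interval 4.81 to 9.36), 21.0% in mouse somas (16.4 to 26.5), 7.12% in BAT cells (5.61 to 8.99) and 10.6% in cardiomyocytes (7.75 to 14.4). Over all contigs of these lists the shares were 8.10%, 18.5%, 7.36% and 9.53%. Members and all genes were both highest in mouse somas. Runs of thymines upstream, where the primer would pair on the other strand, were found for 12.4% of member contigs in mouse dendrites, 11.3% in mouse somas, 10.8% in BAT cells and 6.99% in cardiomyocytes, beside 12.6%, 11.4%, 8.95% and 7.61% over all contigs. For these, mouse dendrites were highest. Counting adenine runs inside the contig as well raised the member shares to 13.1%, 33.1%, 15.2% and 24.9%, and those over all contigs to 16.5%, 28.6%, 15.0% and 23.4%.

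The most read member introns differed from list to list. In mouse dendrites they were in Herc1, a giant HECT ligase whose mutation kills Purkinje cells, with 10159 reads in intron 30, in Fbxo16 with 5555 in intron 6, in Ubr1 with 2240 in intron 14, in Trim37, a ligase of centrioles and peroxisomes, with 2143 in intron 17, and in Fbxl7 with 1573 in intron 1. The Herc1 contig had 949 reads per 50 nt and the Fbxo16 contig 200. In mouse somas the most read were in Herc2, a giant HECT ligase of the DNA damage response (3694 reads in intron 25), and Ube3a (2602 in intron 3), and Ube2e1, an E2 gene (2512 in intron 4), and Fbxo3 (1933 in intron 10) were also among the first 5. The Ube2e1 and Fbxo3 contigs touched exons that other transcripts of these genes use.

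In BAT cells the leading introns were intron 75 of Usp34, a protease that acts on axin in Wnt signalling, with 53384 reads, and intron 8 of Fbxo24 with 37461. Usp22, the deubiquitinase of the SAGA coactivator, had 17448 in intron 1, Ube2d2, a widely used E2, 16937 in intron 1, and Fbxw15 16871 in intron 4. In cardiomyocytes Trim55, a TRIM ligase of the sarcomere also called MuRF2, led with 35636 reads in intron 2. It was followed by Fbxo24 intron 8 with 14810, intron 2 of Ube2f with 13767, intron 1 of the iron sensor Fbxl5 with 9719 and intron 5 of Usp6nl with 7715. The Fbxo24 contigs overlap an exon of Gm16089 on the other strand, so their reads cannot be given to either gene. Fbxw15 belongs to a cluster of near-identical genes, and its count is uncertain for that reason.

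In rat dendrites the leading introns were intron 3 of Ube2b (5601 reads), intron 1 of Ube2m (3877), intron 23 of Usp40 (1641), intron 6 of Usp13 (1525) and intron 1 of Ube2g1 (1213), an E2 of degradation at the endoplasmic reticulum. In rat somas they were introns 4 and 11 of Ube3a, intron 13 of Usp14, a protease bound to the proteasome, with 4236, intron 11 of the transcriptional cofactor Trim24 with 4227, and intron 5 of Ube2d3 with 2876. No gene was among these first 5 introns of both rat lists. Of all 90 rat members, 45 (50%) were listed in both, beside 37.9% of all genes.

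The same member intron was found in all 4 mouse lists 43 times, in 33 genes. A stretch covered by contigs of all 4 lists was found in 6 of the 43 (14.0%, interval 6.56 to 27.3). Over all genes it was found in 475 of 1723 introns (27.6%). In some introns without such a stretch, contigs of fewer lists overlapped, as those of mouse somas and cardiomyocytes in Fbxl17 intron 3. The 6 included Fbxo24 intron 8, Fbxo3 intron 10 and Herc1 intron 74, which touched annotated exons, and Usp25 intron 21 and Ube2k intron 6, which did not. Fbxo24 intron 8 had 35 reads in mouse dendrites, 28 in mouse somas, 37461 in BAT cells and 14810 in cardiomyocytes. Usp25 intron 21 varied far less, with 222, 321, 669 and 758 reads in that order. Introns without a common stretch included Fbxo11 intron 1, from the gene of an F-box protein that targets BCL6, with 967, 747, 8741 and 37 reads, and Herc6 intron 13 with 1158, 7, 4067 and 6136.

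**Figure D3:**
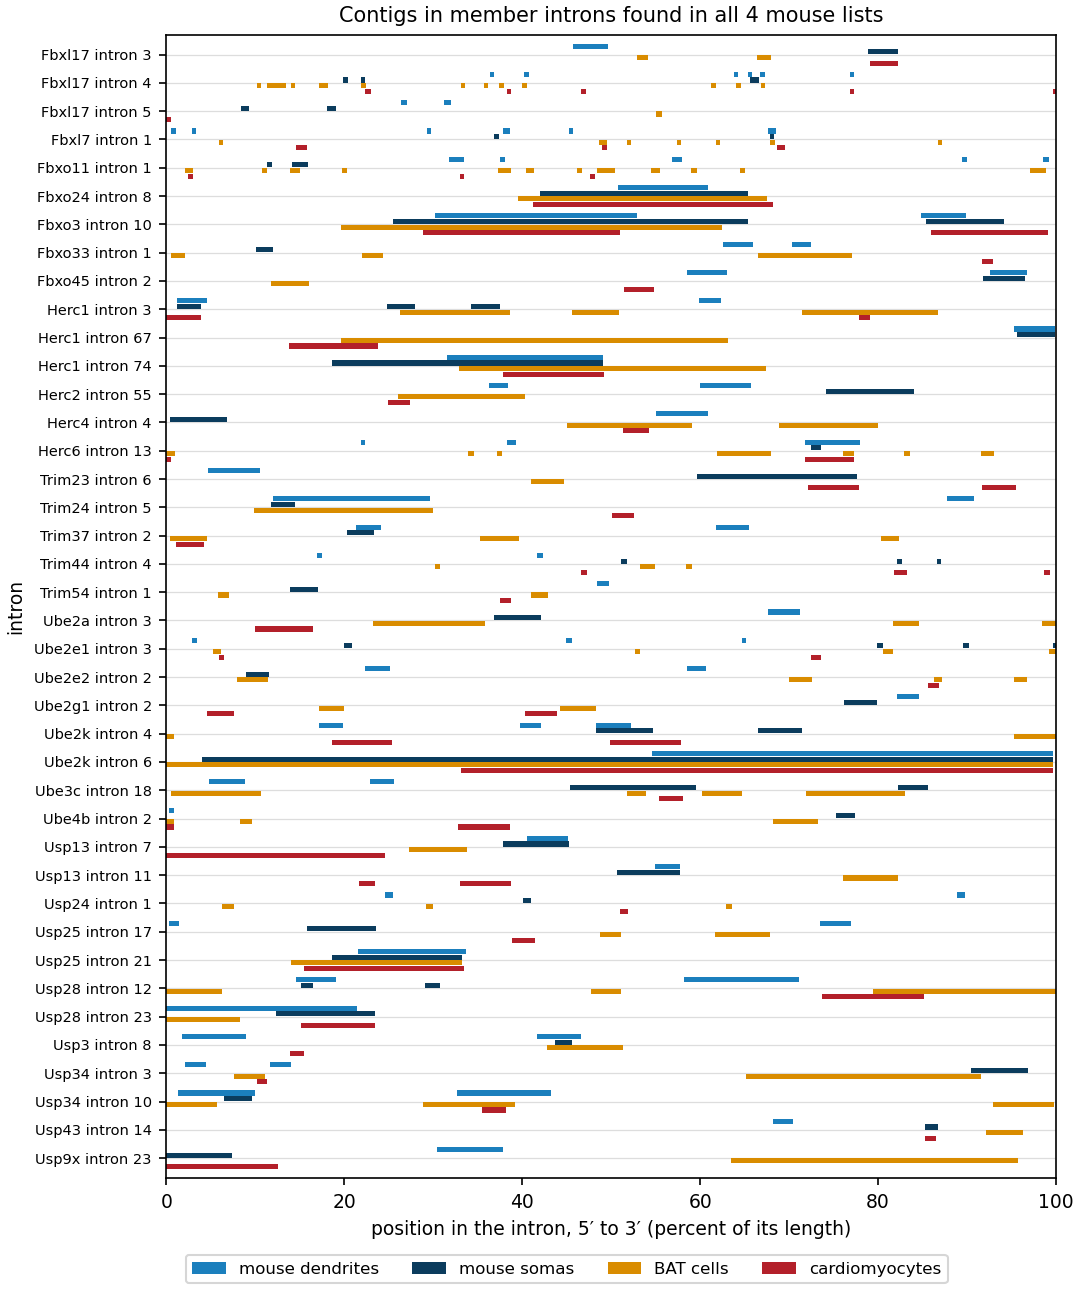
Bars mark where contigs lie along member introns found in all 4 mouse lists, from 5′ to 3′ in percent of the intron, colored by list; intron 42 of Usp34 is among those left out, since its number differs in the annotation. Bars of all 4 colors overlap in few introns, such as Usp25 intron 21. In some of the others, bars of fewer lists overlap.

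The shared stretches of Ube2k and Usp25 are shown because they are the part of the intron that every mouse list kept, outside annotated exons (mm9, gene strand, shared part in capitals). The Ube2k stretch of 147 nt lies in an intron of 326 nt and stops 1 base before its end (chr5:65985890-65986113, plus strand). This intron had few reads: 8 in mouse dendrites, 10 in mouse somas, 31 in BAT cells and 25 in cardiomyocytes. Ube2k is an E2 that builds chains on its own. The Usp25 stretch of 301 nt is given but for its first base (chr16:77111950-77112249, plus strand), and it ends in 12 adenines.
Ube2k intron 6: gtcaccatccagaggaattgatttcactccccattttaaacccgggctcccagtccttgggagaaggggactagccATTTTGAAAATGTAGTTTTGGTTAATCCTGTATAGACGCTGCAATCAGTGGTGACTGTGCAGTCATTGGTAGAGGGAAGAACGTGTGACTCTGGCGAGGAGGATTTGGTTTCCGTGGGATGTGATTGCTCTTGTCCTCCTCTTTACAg
Usp25 intron 21: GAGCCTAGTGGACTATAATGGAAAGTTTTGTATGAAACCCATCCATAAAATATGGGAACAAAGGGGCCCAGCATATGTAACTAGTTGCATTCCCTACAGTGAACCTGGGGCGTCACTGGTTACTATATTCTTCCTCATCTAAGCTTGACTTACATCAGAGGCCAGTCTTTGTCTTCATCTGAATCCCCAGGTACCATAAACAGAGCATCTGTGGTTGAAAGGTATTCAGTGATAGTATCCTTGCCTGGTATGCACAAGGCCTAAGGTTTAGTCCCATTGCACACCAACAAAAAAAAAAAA

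Contigs were found in 15.4% of all introns of the listed member transcripts in mouse dendrites (interval 14.0 to 16.9), 11.5% in mouse somas (10.1 to 13.1), 23.2% in BAT cells (21.6 to 24.8) and 13.5% in cardiomyocytes (12.1 to 15.1). Over all listed transcripts the shares were 15.7%, 11.9%, 21.6% and 14.6%. The transcript with most listed introns was that of Usp34 in mouse dendrites and somas, with 14 and 10, of which most did not match the annotation and are left out of these shares. In BAT cells Usp34 and Herc1 had 26 each, and in cardiomyocytes Usp15 had 11. Member introns with a contig had a median of 3277 nt in mouse dendrites, beside 1487 nt over all introns of these transcripts; over all genes these medians were 3917 and 1675 nt. Contigs that began within 3 nt of the 5′ border made up 4.97% of member contigs in mouse dendrites, 5.81% in mouse somas, 17.7% in BAT cells and 12.7% in cardiomyocytes (9.47 to 16.7). Over all contigs the shares were 4.06%, 7.12%, 16.9% and 18.2%.

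Dendrites were set against somas to ask which introns are kept far from the nucleus. Per the authors, each dendrite library came from many dissected dendrites and each soma library from a single cell. The part of this difference in the values below was not tested. A gene counted as different at 4-fold or more in RPM, with at least 32 reads in both lists. Reads of a gene are summed over its listed introns, which may differ between lists. In mouse, 53 members could be compared, of which 4 were higher in dendrites (7.55%, interval 2.97 to 17.9; 15.6% of all genes) and 13 lower (24.5%, 14.9 to 37.6; 21.7% of all genes). A further 57 of 157 members were listed in dendrites only (36.3%, beside 39.6% of all genes) and 9 in somas only (5.73%, beside 11.8%). The median member log2 was -0.58, beside -0.38 over all genes, and scaling by the median ratio of genes listed in both moved the median of all genes by a further -0.27.

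The members higher in mouse dendrites were the HERC ligases Herc1 and Herc6, the E2 gene Ube2q2 and the X-linked protease Usp9x. Herc6, which attaches ISG15 in mouse, had 1382 reads in dendrites and 37 in somas, a log2 of 4.49 (4.02 to 4.96). Ube2q2 had 1200 and 40 (4.17, 3.72 to 4.63). Usp9x, known for its role in neuronal growth, had 1292 and 65 (3.58, 3.22 to 3.94), and Herc1 had 10409 and 841 (2.90, 2.79 to 3.00). The last 2 values compare different introns. Over introns listed in both lists, Usp9x had 2 and 65 reads (-5.76, -7.79 to -3.73) and Herc1 56 and 701 (-4.38, -4.77 to -3.99), the opposite direction, since intron 30 of Herc1 with 10159 reads is not listed in somas. Herc6 and Ube2q2 kept their direction there, at 5.17 and 3.66. With introns listed in both lists alone, 27 members were left, 1 was higher and 10 were lower, beside 12.5% and 24.5% of all genes. Contigs of at most 400 nt gave the same 2 counts, beside 12.8% and 23.3%.

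The members lowest in mouse dendrites were Ube2e1, Ube3a and Trim9. Trim9, a neuronal ligase that acts in axon branching, had 221 reads in dendrites and 3898 in somas, a log2 of -4.87 (-5.07 to -4.68). Ube2e1 had 87 and 2571 (-5.62, -5.93 to -5.31), but its value was -0.17 over the introns listed in both lists, so the call rests on an intron of the somas alone. For Trim9 and Ube3a the values over shared introns were -4.93 and -4.98. Other members at least 4-fold lower were the proteases Usp8, Usp14 and Usp34, the E2 genes Ube2l3 and Ube2b, the ligases Ubr3, Ube3c and Ube4a, and the F-box genes Fbxl17 and Fbxo3. Of the 13, 9 kept their direction over shared introns and 7 of these stayed 4-fold lower, Ubr3 with 2 reads in dendrites; Usp34 fell to -0.85. Usp14 and Usp8 took the opposite direction (0.56 and 4.07, the latter from 56 and 2 reads, 2.04 to 6.11), and 2 had no intron in both lists. Over all genes, 89% of the lower and 81.2% of the higher calls with a shared intron kept their direction. Of those in a single list, Ube2d2 had the most reads in dendrites (1457), ahead of Fbxl13 (1044), and Fbxo4 the most in somas (1249).

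In rat, 25 members could be compared, of which 4 were higher in dendrites (16%, interval 6.40 to 34.7; 22.9% of all genes) and 5 lower (20%, 8.86 to 39.1; 20% of all genes). A further 29 of 90 were listed in dendrites only (32.2%, beside 40.6% of all genes) and 16 in somas only (17.8%, beside 21.5%). The median member log2 was -0.36, beside 0.20 over all genes. This comparison depended on the scaling: by the median ratio the median of all genes moved by -0.73, 3 members were higher and 8 lower, and the calls over all genes went from 199 higher and 174 lower to 124 and 246.

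Ube2m, the E2 of NEDD8 that activates cullin ligases, had 3877 reads in rat dendrites and 101 in rat somas, a log2 of 6.32 (6.03 to 6.60). Usp20, a protease that binds the von Hippel-Lindau protein, had 284 and 50 (3.56, 3.13 to 4.00), and Usp40 had 2454 and 626 (3.03, 2.90 to 3.15). The value of Usp40 was 1.51 over introns listed in both lists, below 4-fold. Usp16, a histone H2A protease, was higher with 401 and 208 (2.00, 1.76 to 2.24), and by the median ratio it fell short of 4-fold. Lower in rat dendrites were Ube3a, Usp47 with 34 and 1342 (-4.25, -4.74 to -3.76), Usp14 with 273 and 4319 (-2.93, -3.10 to -2.75), Usp3 and Trim24. Usp47 had no intron in both rat lists, and Usp3 had 41 and 75 reads in its shared intron, a log2 of 0.18 (-0.36 to 0.73), where it was not lower. The other 3 lower members and all 4 higher ones kept their direction over shared introns, beside 83.0% and 86.4% over all genes with a shared intron. Ube2b, with 5601 reads in dendrites, and Ube2d3, with 3131 in somas, led the genes of a single rat list, and Usp13 had 1525 in dendrites.

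Of the 14 members compared in both species, 5 had the same direction (35.7%), beside 155 of 333 over all genes (46.5%). This count depended on the setting: by the median ratio it was 7 of 14 (50%, interval 26.8 to 73.2), beside 52.6% of all genes, and over introns listed in both lists 6 of 11 (54.5%, 28.01 to 78.73), beside 48.7%. The 5 were Ube3a, Usp14, Usp15, Usp33 and Fbxl17, all lower in dendrites in both, though the mouse interval of Usp33 (-0.88 to 0.36) included 0, and Usp15 had no intron in both lists in either species. Usp14 had 102 reads in mouse dendrites and 855 in mouse somas, a log2 of -3.80 (-4.10 to -3.51), but 0.56 (-0.09 to 1.20) over the intron listed in both mouse lists. Ube3a kept its direction over shared introns in both species, at -4.98 and -4.66. Trim9 differed: its rat reads were 1109 in dendrites and 1510 in somas, a log2 of 0.61 (0.50 to 0.72), against -4.87 in mouse; by the median ratio the rat value turned to -0.12. Usp9x was 3.58 in mouse and -0.36 in rat, but -5.76 and -0.04 over shared introns. Neuronal markers were 42454 and 3269 RPM in somas and dendrites of mouse and 9996 and 1724 in rat, and their part in these values was not tested.

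**Figure D4:**
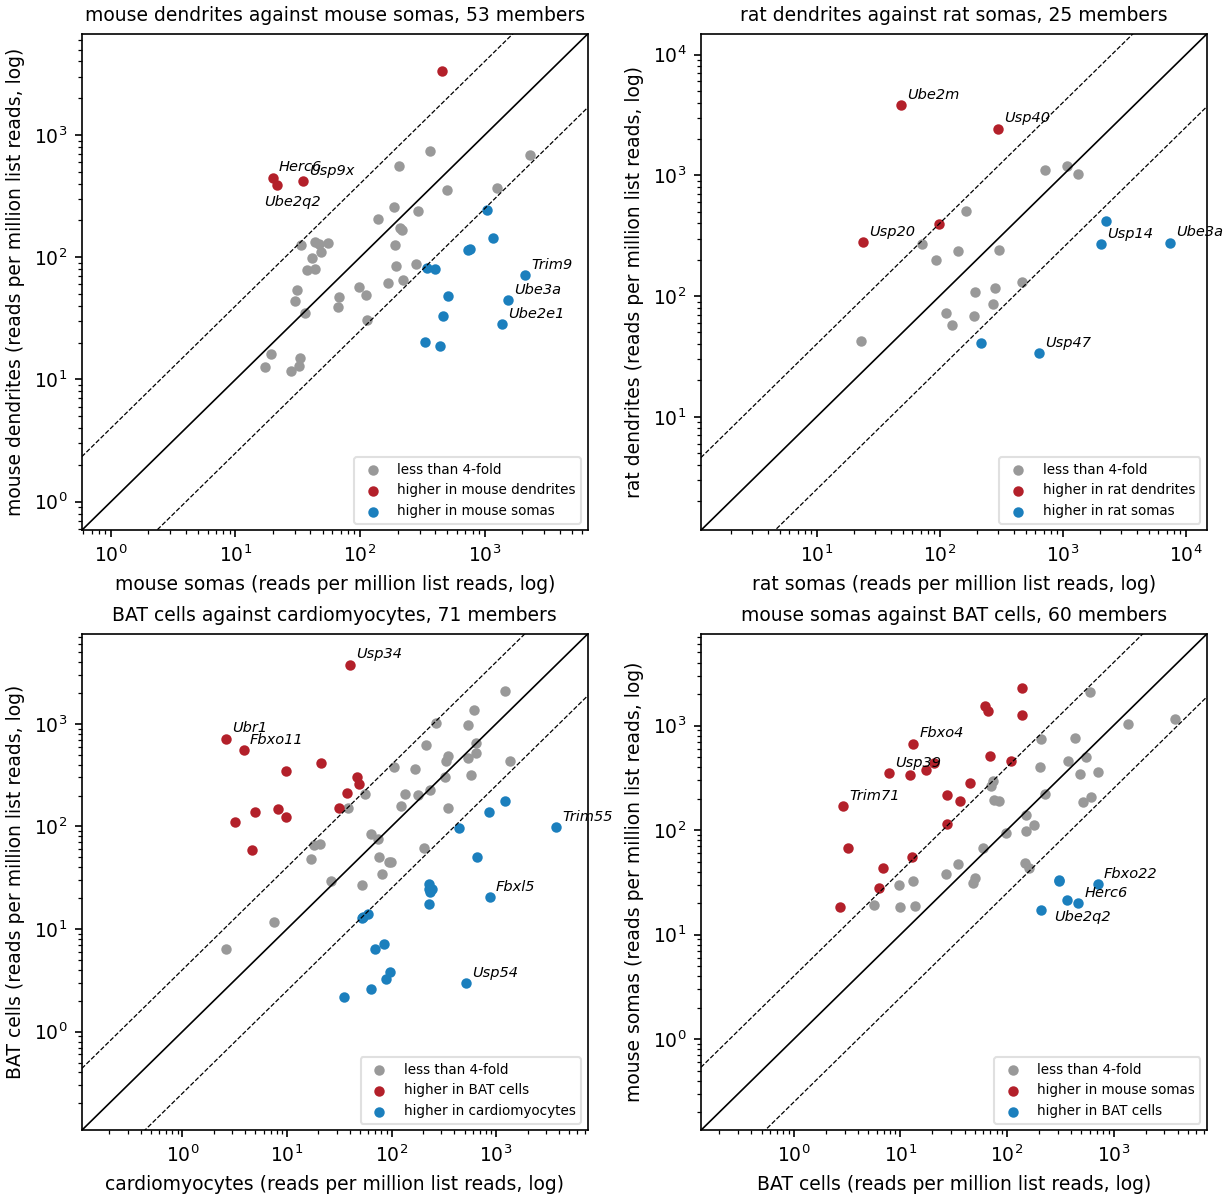
Points are members with at least 32 reads in both lists, placed by their RPM on log axes; dashed lines mark 4-fold and colors mark members beyond them. The panels hold 53, 25, 71 and 60 members, and most points lie between the dashed lines in each panel.

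BAT cells were compared with cardiomyocytes. These lists differ in cell type, strain (CD-1 and transgenic C57BL/6), embryonic day (17.5 and 14.5), collecting laboratory and isolation (plated and picked, or flow sorted), and these cannot be told apart. Of 71 members compared, 14 were higher in BAT cells (19.7%, interval 12.1 to 30.4; 21.0% of all genes) and 21 lower (29.6%, 20.2 to 41.0; 31.1% of all genes). A further 70 of 178 were listed in BAT cells only (39.3%, beside 43.5% of all genes) and 8 in cardiomyocytes only (4.49%, beside 6.95%). The member median was 0.02, beside -0.47 over all genes. The median ratio moved the latter by -0.32, which puts the member median at -0.30.

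Ubr1 had 12790 reads in BAT cells and 32 in cardiomyocytes, a log2 of 8.09 (7.59 to 8.59), but 25 and 30 reads over introns listed in both (-0.81, -1.58 to -0.05), the opposite direction. Fbxo11 had 9879 and 47 (7.17, 6.75 to 7.58). Usp34 had 67391 and 485 (6.57, 6.44 to 6.70), but 1.70 over introns listed in both. On the other side stood the muscle ligase Trim55 with 1762 and 45337 reads (-5.24, -5.30 to -5.17), which was -2.08 over shared introns and so still 4-fold lower. Fbxl5, an F-box protein that binds iron and targets the iron regulator IRP2, had 365 and 10553 (-5.40, -5.55 to -5.25). Usp54, a member of the USP family, had 53 and 6266 (-7.44, -7.83 to -7.04), with no intron in both lists. Over shared introns, 13 of the 14 higher members kept their direction but only 8 were still 4-fold higher, Herc2, Trim37, Usp28, Usp34 and Usp48 being below. Of the 21 lower ones 14 kept their direction and 13 their call, 3 turned and 4 had no shared intron. Over all genes with a shared intron, 62.9% of the higher and 84.9% of the lower calls were kept. Usp15 and Usp9x were also more than 4-fold higher in cardiomyocytes. In BAT cells alone, Fbxw15 (16871 reads), Fbxo22 (12685) and Trim9 (10862) had the most reads.

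Mouse somas were compared with BAT cells as neurons against a cell outside the nervous system, but strain, embryonic day and culture differ with the cell type, and these 2 lists also serve in the comparisons above. Of 60 members, 21 were higher in somas (35%, interval 24.2 to 47.6; 37.4% of all genes) and 6 lower (10%, 4.66 to 20.2; 14.2% of all genes). Of 179, 9 were listed in somas only (5.03%, beside 7.42% of all genes) and 79 in BAT cells only (44.1%, beside 46.6%). The medians were 1.06 for members and 1.06 for all genes, and the median ratio moved the latter by -0.38.

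Trim71, a let-7 target of early embryos, had 313 reads in somas and 52 in BAT cells, a log2 of 5.86 (5.43 to 6.28). Fbxo4, an F-box protein of cyclin D1 turnover, had 1249 and 235 (5.68, 5.48 to 5.88). Usp39, a splicing factor related to USP proteases, had 654 and 141 (5.48, 5.22 to 5.74), with no intron in both lists. Ube3a was higher in somas by 4.63 (4.53 to 4.73) and Herc2 by 4.05 (3.98 to 4.12). Herc6 had 37 and 8364 reads (-4.55, -5.02 to -4.09) and Ube2q2 40 and 6513 (-4.08, -4.53 to -3.63), the latter -0.12 over introns listed in both. Over shared introns, 16 of the 21 higher members kept their direction and call, 2 turned and 3 had no such intron. Of the 6 lower ones 3 kept their direction and 2 their call, 2 turned and 1 had none. Over all genes with a shared intron, 90.2% of the higher and 52.5% of the lower calls were kept. Fbxo22, with 56 and 12685 reads (-4.56, -4.94 to -4.18), turned to 0.38 over introns listed in both and to 0.23 with contigs of at most 400 nt. Ube2d2 (18401 reads), Usp22 (17502) and Fbxw15 led the members listed in BAT cells and not in mouse somas.

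Of 17 members named for neurons, 11 were listed in mouse dendrites with 6090 summed RPM, 9 in mouse somas with 8642, 10 in rat dendrites with 4036 and 10 in rat somas with 13501. BAT cells listed 14 of them with 2607 and cardiomyocytes 8 with 2368. Single genes gave much of some sums: Herc1 had 3372 of the 6090 in mouse dendrites, and Ube3a 7459 of the 13501 in rat somas. Fbxw7, which degrades Notch and cyclin E, was listed in BAT cells only (735 reads), and Fbxo2 and Trim32 in no list. Fbxl20, a ligase of the synaptic protein Rim1, had 310 reads in mouse dendrites, 3610 in BAT cells and 2204 in cardiomyocytes. Usp46, which acts on glutamate receptors, had 160 in mouse dendrites, 221 in BAT cells and 16 in rat dendrites. In that order these were 51.8, 12.4 and 15.9 RPM. Trim2 and Trim3, partners in neuronal growth, were listed in both rat lists and in BAT cells, with 108 and 7 reads in rat dendrites, 405 and 148 in rat somas and 6 and 24 in BAT cells.

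Of 6 striated muscle members, 5 were listed in cardiomyocytes with 4004 summed RPM and 4 in BAT cells with 102. Trim55 alone had 3716 of the sum in cardiomyocytes and 98.7 of that in BAT cells. Trim63 had 2780 reads in cardiomyocytes and 22 in BAT cells, and Fbxo32 had 724 and 23, with 32 in mouse dendrites. Neither reached 32 reads in BAT cells, so no fold is given. Trim54, a TRIM ligase on microtubules of muscle, had 8 reads in cardiomyocytes and 90 in mouse somas, and Trim72, a membrane repair protein, was in no list. Fbxl22, an F-box protein of the cardiac sarcomere, had 4 reads in cardiomyocytes and 447 in rat dendrites. Of 3 members named for adipocytes, all were listed in BAT cells: Usp7, a protease of p53 and Mdm2, with 11014 reads, Fbxw7 with 735 and Trim28 with 44. Usp7 also had 2610 reads in cardiomyocytes, 1708 in mouse dendrites and 381 in mouse somas. In RPM it had 617 in BAT cells, 214 in cardiomyocytes, 553 in mouse dendrites and 205 in mouse somas.

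Other genes of the pathway, 145 in all, were listed at 91 in mouse dendrites, 77 in mouse somas, 117 in BAT cells, 96 in cardiomyocytes, 62 in rat dendrites and 63 in rat somas. Uba6, an E1 enzyme, had 475, 12, 9990, 8816, 287 and 1191 reads in that order. The cullin with most reads was Cul4a in BAT cells (27366) and Cul3 in mouse somas (1191), and HECT ligases outside the naming rule were led by Nedd4 in mouse dendrites (1806), Trip12 in mouse somas (3805), Wwp1 in BAT cells (27684) and Huwe1 in cardiomyocytes (14138). Proteasome subunits were the group most often listed in BAT cells, with 36 of 38. Between mouse dendrites and somas, 2 of 35 pathway genes were higher and 6 lower, beside 15.6% and 21.7% of all genes, and in rat 3 of 14 were higher and 1 lower, beside 22.9% and 20%. Between BAT cells and cardiomyocytes, 22 of 65 were higher and 15 lower, beside 21.0% and 31.1%, and between mouse somas and BAT cells 9 of 45 were higher and 9 lower, beside 37.4% and 14.2%.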

How the data were processed

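The labels name 26 libraries in 6 groups, and the 6 pooled lists of their intronic reads were used. For BAT and for cardiomyocytes the labels name more libraries than the paper has cells, so it cannot be told which of these libraries the lists pool. The authors amplified the RNA by aRNA, aligned paired-end reads with RUM to mm9 or rn4, kept uniquely mapped reads in introns of RefSeq transcripts, removed introns with predicted genes or polyadenylation sites, and clustered nearby reads into contigs. The deposited unit is the read count of an intron, not normalised, pooled over libraries and repeated on each contig. It was counted once per transcript and intron and scaled to 1000000 reads of the list. List totals ran from 1007530 to 17858440 reads; library depth was not used here. Shares have 95% Wilson intervals, folds 95% intervals on the log scale from counts, and medians order-statistic intervals.

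A fold needed at least 32 reads in both lists, and a call at least 4-fold. Mouse contigs were compared with GENCODE M1 on NCBIM37, the same build as mm9; between 97.9% and 98.5% of contigs of each mouse list lay inside the intron of the same number. Rat contigs were not compared with a genome here. Adenine runs had at least 10 bases within 300 nt. Python 3.11.15, pandas 2.3.3, numpy 2.4.6, scipy 1.17.1 and matplotlib 3.10.9 were used, and the code was tested on simulated data.

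Genes were named by a rule: in each list the 5 member introns with the most reads; members in all 6 lists; the 2 genes of each of 7 families with the highest mean share over the 4 mouse lists; for each comparison the 3 largest called folds in each direction and the 3 most read members of a single list; members with the same intron in all 4 mouse lists; and genes fixed for their role in neurons, muscle or adipocytes. At most 12 genes were named for each part. Usp25, Usp33, Usp8, Ube2v1, Ube2v2, Ube2cbp, Ubr3, Ube2l3, Ube4a, Ube4b, Usp28, Usp43, Usp48 and Trim33 were named after their values were seen. Members, the 145 pathway genes and the marker lists (neuron, astrocyte, oligodendrocyte, microglia, brown adipocyte, cardiomyocyte, fibroblast, endothelium, skeletal muscle) were chosen with earlier results of these data known.

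Alternatives changed the scaling, the read minimum, the fold, the contig length, the counting of transcripts and the members or introns kept. Near-identical copies of genes may share reads. Some genes and sequences that the rule picked are not reported here.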

Additional observations from a re-analysis of the deposited data

Results flagged for a closer look

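Of the 14 members compared in both species, 9 had opposite signs (7 of 14 by the median ratio, 5 of 11 over introns listed in both lists), and for 5 of these the dendrite to soma ratio was at least 2-fold in opposite directions in the pooled mouse and rat lists. Over all genes compared in both, 178 of 333 had opposite signs (53.5%) and 85 (25.5%) were at least 2-fold in opposite directions, beside 35.7% of members (interval 16.3 to 61.2). Over introns listed in both lists, this 2-fold count was 2 of 11 members (18.2%, 5.14 to 47.7), beside 28.45% of all genes. By the median ratio it was 5 of 14 members, beside 22.5% of all genes. The log2 of mouse dendrites over mouse somas and of rat dendrites over rat somas was 1.24 and -2.41 for Trim24, -3.41 and 1.91 for Ube4a, -1.88 and 2.00 for Usp16, 1.47 and -2.41 for Usp3, and 1.92 and -4.25 for Usp47. The 95% intervals of each pair did not overlap, but they cover counting error only, and the difference between the species was not tested, since each group has 1 pooled list. Several of these values compare different introns. Usp47 had no intron in both lists of either species, and Ube4a none in mouse. The rat value of Usp3 was 0.18 over its shared intron, not lower in dendrites. Over shared introns Trim24 (5.59 and -3.05) and Usp16 (-4.86 and 2.00) kept opposite directions, with only 2 reads for Trim24 in mouse somas.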

How the results depend on the processing

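No paired analysis was possible because each list pools its libraries, and leaving out a library was not possible for the same reason. Of the values for lists and comparisons, 113 stayed within their interval, or within 1.5 times for a count, under the alternatives and 99 moved. Of the values for single genes in comparisons, 167 stayed, 148 moved and 19 changed sign. These are all called members and the genes picked by the rule. A gene has no value under an alternative that left it under 32 reads or without a shared intron; for introns listed in both lists, a value from any number of reads is then given. That version, the extension to all called members, the families without single genes and the direction in both species under other settings were chosen after seeing the data. The cause was not tested for any value below.

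With contigs of at most 400 nt in the whole-cell lists, or in all lists, the member share of reads was 2.38% in mouse somas, 2.08% in BAT cells, 1.56% in cardiomyocytes and 3.04% in rat somas, and the median reads per member intron were 18, 18, 34 and 6. With that limit in all lists, the share was 1.40% in mouse dendrites and 3.73% in rat dendrites, the medians were 15 and 12, and 49 members were listed in rat dendrites. Introns with a contig were then 12.6%, 9.08%, 17.1% and 10.4% in mouse dendrites, mouse somas, BAT cells and cardiomyocytes, and adenine runs downstream 9.17% in BAT cells.

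With introns of at least 32 reads, the members listed were 98 in mouse dendrites, 46 in rat dendrites and 36 in rat somas. The share of genes was 2.19% in mouse somas and 2.11% in rat dendrites, and the share of reads 2.54% in rat dendrites. The median reads were 120, 127, 221.5, 435, 114 and 294.5, and the median contig lengths 358, 386, 378, 379.5, 430.5 and 650 nt, in mouse dendrites, mouse somas, BAT cells, cardiomyocytes, rat dendrites and rat somas.

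In that order, the share of reads was 1.78%, 1.97%, 2.16%, 1.86%, 1.37% and 2.34% without Ube2 symbols, with 1.42% of genes in BAT cells. It was 1.63%, 2.09%, 2.19%, 1.84%, 1.96% and 2.12% without the most read member intron, and 1.70%, 2.51%, 2.61%, 2.30%, 3.01% and 2.90% without the 10 most read introns of the list. In mouse dendrites, BAT cells and cardiomyocytes it was 2.00%, 2.30% and 2.20% without introns whose contigs touch exons, and 1.89%, 2.35% and 2.10% (2.095%) without near-identical copies. These last 2 alternatives, the introns listed in both lists and runs inside the contig were chosen after seeing the data.

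Among introns of 1000 to 30000 nt, 21.7%, 15.6%, 29.9% and 19.0% had a contig in mouse dendrites, mouse somas, BAT cells and cardiomyocytes. Runs of at least 8 adenines followed 11.6%, 31.4% (31.45%), 12.8% and 15.8% of contigs, and with runs inside the contig the shares were 13.1%, 33.1%, 15.2% and 24.9%.

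The percent over all genes under the same alternative follows each count of members in brackets. In mouse dendrites against somas, 1 of 27 members was higher with a read minimum 4 times as high (9.73%), with contigs of at most 400 nt (12.8%) and with introns listed in both lists (12.5%); at 2-fold, 13 of 53 were higher (28.2%) and 24 lower (38.6%). In rat, 2 of 14 were higher (16.9%) and 3 lower (14.8%) with that minimum, 2 of 9 (19.6%) and 2 (19.9%) with short contigs, and 7 of 25 (36.9%) and 10 (31.95%) at 2-fold, and 8 of 25 were lower by the median ratio (28.3%). Between BAT cells and cardiomyocytes, 6 of 55 were higher with that minimum (15.7%) and 25 of 71 at 2-fold (31.6%). Between mouse somas and BAT cells, 0 of 36 were lower with that minimum (7.38%), 1 of 37 with short contigs (10.2%), 2 of 43 with introns in both lists (9.84%) and 11 of 60 at 2-fold (23.0%).

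All changes of sign among called members were as follows. With contigs of at most 400 nt, Herc1 turned to -1.97 in mouse dendrites against somas; Herc2 to -0.27, Ube4b to 0.09 and Ubr3 to -0.70 in BAT cells against cardiomyocytes; and Fbxo22 to 0.23 and Ube2e1 to -1.21 in mouse somas against BAT cells. Over introns listed in both lists, Herc1 turned to -4.38, Usp9x to -5.76, Usp14 to 0.56 and Usp8 to 4.07 in mouse dendrites against somas, and Usp3 to 0.18 in rat. Over such introns, Usp16 turned to 0.61, Ubr1 to -0.81, Trim24 to 5.16 and Trim33 to 0.26 in BAT cells against cardiomyocytes, and Fbxo22 to 0.38, Ube2e1 to -1.06, Usp43 to 1.87 and Trim24 to -2.45 in mouse somas against BAT cells. Of these, Usp9x, Usp14, Usp8, Ubr1, Trim24 and Trim33 had under 32 reads in a list, some as few as 2. Rat Trim9 and Herc2, which were not called, turned from 0.61 and 0.13 to -0.12 and -0.60 by the median ratio.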

Other observations

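Some members belong to groups of near-identical genes. The 13 genes from Fbxw13 to Fbxw28 had 17597 reads in BAT cells (3.97% of member reads, 16871 of them in Fbxw15), 1810 in mouse dendrites (3.01%), 36 in mouse somas and 5 in cardiomyocytes. Trim12a, Trim30a, Trim34a and Trim43a to Trim43c, 6 members, had 6440 reads in BAT cells (1.45%) and 3596 in cardiomyocytes (1.39%), with 40 in mouse dendrites and 67 in mouse somas. Contigs that touch an annotated exon were 30 of 475 member contigs in mouse dendrites, 18 of 248 in mouse somas, 63 of 899 in BAT cells and 27 of 329 in cardiomyocytes. These were 6.32%, 7.26%, 7.01% and 8.21%, beside 5.04%, 9.59%, 7.51% and 11.4% over all contigs. The 8 members listed in rat only were Fbxo23, Fbxo31, Trim45, Ube2d1, Ube2j2, Ube2m, Ube2n and Usp29.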
